A study of Mus musculus with 4 samples.

Results

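Dnmt1, Dnmt3a, Tet1, Tet2 and Tet3 encode enzymes that add the methyl mark of DNA or oxidise it towards removal. They were the 5 rows of the count matrix, of 31053 genes, whose symbols are Dnmt1, Dnmt3a, Tet1, Tet2 or Tet3, and they were described across the deposited cell classes, subtypes and stages. The set holds writers and erasers. Methyl-CpG-binding-domain and zinc finger families, which include proteins that read the mark, are represented below by genes from a list of related genes. Membership of these families alone does not make a protein a reader.

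The data are single-nucleus RNA sequencing of the superior colliculus, a midbrain structure that receives visual input, from C57BL/6J mice. The 4 groups were embryonic day 19 (E19) and postnatal days 4, 8 and 21 (P4, P8 and P21), all of the same strain, with no treatment or engineered allele named in the labels. Each stage was 1 library made from tissue of several animals, so stage and library cannot be told apart and no difference between stages has a replicate check. Nuclear RNA is rich in unspliced transcripts, and the reads were counted over whole gene spans, introns included.

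DNA methyltransferases place a methyl group on cytosine. Dnmt1 copies the pattern onto the new strand after replication, and Dnmt3a sets methylation anew, including at CH sites, which gain methylation in neurons after birth. The Tet enzymes oxidise 5-methylcytosine to 5-hydroxymethylcytosine, which is abundant in neurons, and to further products that base excision repair replaces with plain cytosine.

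Over all nuclei of both neuron classes, Dnmt1 and Tet1 were lower at P21 than at E19, Dnmt3a and Tet2 were higher, and Tet3 differed least. Among nuclei of 6000 to 12000 UMIs the intervals of the Dnmt3a and Tet2 differences still excluded 0. Those of Dnmt1, Tet1 and Tet3 did not, and Tet3 no longer differed least. In excitatory neurons Dnmt1 stood at 41.8 CPM at E19 and 25.7 at P21, and Dnmt3a at 351 and 431 CPM. These are moderate differences: with fold changes of 1.41 or more (a log2 ratio of 0.5) counted, 1 of the 5 genes passed in excitatory neurons, where 40.3% of all genes tested did, and 0 of 5 in inhibitory neurons, where 42.4% did. Among glia and rarer classes, Dnmt1 was highest in dividing cells and Tet3 in microglia, where Tet1 was nearly undetected.

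The 5 genes lie on 5 chromosomes of GRCm38. Dnmt1 (ENSMUSG00000004099) spans chr9:20907209-20959888 on the minus strand and Dnmt3a (ENSMUSG00000020661) spans chr12:3806007-3914443 on the plus strand. Tet1 (ENSMUSG00000047146) spans chr10:62804570-62908996, Tet2 (ENSMUSG00000040943) chr3:133463679-133545139 and Tet3 (ENSMUSG00000034832) chr6:83362373-83459084, all on the minus strand. Summed over all nuclei they gave 3506, 41473, 7192, 9618 and 13525 UMIs (unique transcript molecules) for Dnmt1, Dnmt3a, Tet1, Tet2 and Tet3. Antisense genes overlap Dnmt3a (Dnmt3aos, 92 UMIs) and Tet2 (Gm42567, 747 UMIs, or 7.77% of the Tet2 UMIs). Tet3 also overlaps B230319C09Rik on the other strand. Where counting ignores strand, reads of such pairs cannot be told apart.

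The promoters of Dnmt3a and Tet2 are shown first, because these were the members with higher levels at P21 in both neuron classes, beside one of the promoters of Dnmt1, which was lower. Each line gives the 250 bases before an annotated RefSeq start (GRCm38.p6), 5′ to 3′ on the gene's strand, with CG dinucleotides (CpG, the usual site of methylation) in capitals. None of the 3 stretches overlaps an annotated exon.

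Dnmt3a, chr12:3806730-3806979, plus strand: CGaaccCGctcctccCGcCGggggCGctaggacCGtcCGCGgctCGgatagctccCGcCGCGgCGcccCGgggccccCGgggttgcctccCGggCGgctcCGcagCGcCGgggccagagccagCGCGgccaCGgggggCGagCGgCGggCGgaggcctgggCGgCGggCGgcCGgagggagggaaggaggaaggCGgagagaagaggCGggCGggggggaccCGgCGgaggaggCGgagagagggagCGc

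Tet2, chr3:133544391-133544640, minus strand: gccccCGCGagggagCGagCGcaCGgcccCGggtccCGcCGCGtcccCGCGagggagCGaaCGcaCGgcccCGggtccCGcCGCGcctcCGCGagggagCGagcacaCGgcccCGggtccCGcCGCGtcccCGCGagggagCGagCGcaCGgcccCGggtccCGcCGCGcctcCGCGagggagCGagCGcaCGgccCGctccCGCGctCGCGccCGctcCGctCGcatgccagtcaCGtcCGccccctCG

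Dnmt1, chr9:20952980-20953229, minus strand: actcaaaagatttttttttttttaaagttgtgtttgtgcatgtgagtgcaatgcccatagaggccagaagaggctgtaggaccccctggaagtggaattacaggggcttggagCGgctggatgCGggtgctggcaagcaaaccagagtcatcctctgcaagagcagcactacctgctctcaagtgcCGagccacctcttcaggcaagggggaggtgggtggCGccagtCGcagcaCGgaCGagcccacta

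The Tet2 stretch held 51 CpG, the Dnmt3a stretch 38 and this Dnmt1 stretch 7. Over windows of 300 bases, which add 50 bases after the start, the counts were 57 for Tet2, 46 for Dnmt3a and 12 for Dnmt1. As many CpG as in the Tet2 window were found in 0.152% of 32851 mouse promoter windows, and as many as in the Dnmt3a and Dnmt1 windows in 1.65% and 39.6%. The median window held 7. Tet1 and Tet3 have 1 window each, with 17 and 22 CpG. Dnmt1 has 2 further windows, with 33 and 2 CpG, and Dnmt3a 2 further ones, with 47 and 18. Methylation was not measured in this study, so these are features of the sequence and not of the nuclei.

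The Dnmt1 window with 33 CpG (chr9:20952574-20952873, minus strand) was the only window of the 5 genes with a match to TTTGGCGC or TTTCGCGC, forms of the E2F motif, searched on both strands. The matches, shown because Dnmt1 was highest in dividing cells, are in capitals with the bases on either side, the first starting 34 bases after the annotated start and the second 219 bases before it (offset -219).

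Dnmt1, after the start: gggcagcgTTTGGCGCgggctgtg

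Dnmt1, before the start, reverse strand of TTTCGCGC: ttccgcgcGCGCGAAAaagccggg

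Of all windows 0.813% hold either motif. By gene, 251 of 27025 genes with a window have a match, 0.929%, among them Mcm3, Mcm5, Mcm6 and Mcm7 of the 9 S-phase and division genes with a window and Uhrf1 of 5 writer partners. A match describes the letters only and is neither a binding site nor a cause of any level.

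The 4 libraries held 9724 nuclei, between 2249 and 2585 each, with median depths that went from 6828 UMIs in the E19 library through 9044.5 and 9672 to 11745 in the P21 library. Nuclei were assigned by the authors to 9 classes and 35 subtypes. Of 31 marker genes, 22 were highest in their own class in all 4 libraries. In the Epithelial Cell class only Cdh1 was highest in all 4, while Ttr and Folr1 were highest there in none. Of the astrocyte markers Aqp4 and Aldh1l1 were highest in astrocytes in all 4 but Gja1 in none. Slc1a3 was highest in astrocytes in 1 library and in vascular leptomeningeal cells in the others. A total of 9 nucleus barcodes occurred in more than one library. The summed oligodendrocyte markers Mbp and Mog reached 77.6 CPM (excitatory neurons) and 82.2 CPM (inhibitory neurons) in the P21 library, against 40.6 to 58.5 CPM in the 3 earlier ones. In the P4 library the epithelial markers Ttr, Folr1 and Cdh1 summed to 74.1 CPM in excitatory neurons, 97.1 in inhibitory neurons and 675 in astrocytes, against 0.34 to 7.56 CPM in these classes in the other 3. Median mitochondrial shares were 0.635%, 0.795%, 0.337% and 0.232% in stage order, and ribosomal protein shares 0.528%, 0.354%, 0.260% and 0.165%. The part of any of these in the differences between stages was not tested.

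Levels are UMIs of a gene per 1000000 UMIs of the summed nuclei of a class (CPM). Ranges in brackets are 95% Poisson intervals, which cover counting error only. Log2 ratios use CPM plus 5. In such sums a fall in the number of expressing nuclei and a fall in RNA per nucleus cannot be told apart.

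Dnmt1, the maintenance writer, had the fewest UMIs of the 5 genes in both neuron classes, and its levels stepped down with stage in excitatory neurons. In the order E19, P4, P8, P21 it stood there at 41.8 CPM (38.1 to 45.7), 36.3 (33.3 to 39.5), 33.6 (30.5 to 36.9) and 25.7 (23.2 to 28.5). The inhibitory levels, in the same order, were 44.5 CPM (39.3 to 50.1), 45.6 (40.5 to 51.1), 38.4 (34.9 to 42.3) and 31.3 (28.1 to 34.8). The E19 and P21 intervals did not overlap in either class, and in inhibitory neurons E19 and P4 were alike within their intervals. The log2 ratio of P21 over E19 was -0.61 (-0.77 to -0.44) in excitatory and -0.45 (-0.65 to -0.24) in inhibitory neurons. A ratio of 0.5 or more in size was found for 40.3% of 7650 genes tested in excitatory neurons and 42.4% of 7807 in inhibitory neurons, so Dnmt1 was not set apart from genes at large. Among nuclei of 6000 to 12000 UMIs the excitatory value was -0.039 (-0.50 to 0.42, 860 nuclei at E19 and 83 at P21) and the inhibitory value -0.22 (-0.57 to 0.14, 408 and 247 nuclei), so both intervals held 0. With every nucleus thinned to 2300 UMIs the values were -0.50 and -0.33.

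Shares of nuclei with a Dnmt1 UMI ran the other way until depth was made equal. A UMI was found in 29.6% of excitatory nuclei of E19 (median depth 8051.5 UMIs) and in 40.8% of those of P21 (19601 UMIs). After each nucleus was thinned to 2300 UMIs the shares were 9.34% (7.84 to 11.03) and 6.74% (4.98 to 8.89), intervals that overlap. No class is known to lack these genes. Over all stages summed, the lowest share of a class was that of Tet1 in microglia, 4.44% at a median depth of 3219 UMIs.

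Dnmt3a, the de novo writer, was the most abundant of the 5 in neurons and was higher after birth. Excitatory levels from E19 to P21 were 351 CPM (340.3 to 362), 412 (402 to 422), 421 (410.0 to 432) and 431 (421 to 442). The inhibitory levels were 340 CPM (325 to 355), 413 (398 to 430), 416 (404 to 428) and 439 (427 to 451). The E19 library was the low one in both classes, and its interval lay apart from the other 3. From E19 to P4 the log2 ratio was 0.23 (0.17 to 0.28) in excitatory and 0.28 (0.20 to 0.36) in inhibitory neurons. Epithelial markers at P4 summed to 74.1 and 97.1 CPM in these classes, and their part was not tested. Over the longer span from P4 to P21 the ratios in CPM were 0.065 and 0.086. With median-of-ratios scaling, described below, E19 to P4 gave 0.22 and 0.26. P4 to P21 then gave 0.19 (0.14 to 0.24) and 0.21 (0.15 to 0.28), so the spans were alike in size under that scaling. None of the 5 genes passed the 0.5 cut from E19 to P4, where 9.32% of genes in excitatory and 10.5% in inhibitory neurons did. Over E19 to P21 the Dnmt3a values were 0.29 (0.24 to 0.35) and 0.36 (0.29 to 0.44), and 60.9% and 54.2% of all genes tested had a larger ratio in either direction. Among nuclei of 6000 to 12000 UMIs they were 0.35 (0.19 to 0.51) and 0.32 (0.20 to 0.44). The thinned share of nuclei with a Dnmt3a UMI was 52.5% at E19 and 62.0% at P21 in excitatory neurons, and 49.6% and 62.4% in inhibitory neurons.

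The median gene moves with the scaling: median-of-ratios size factors shift the log2 ratio of P21 over E19 by 0.11 in excitatory neurons, 0.097 in inhibitory neurons and 0.27 in astrocytes, relative to CPM. With that scaling Dnmt3a stood at 0.41 and 0.47 in the 2 neuron classes, Tet2 at 0.50 and 0.44, Tet1 at -0.21 and -0.20, and Dnmt1 at -0.50 and -0.35. The directions of these 4 genes were thus the same under both scalings, and that of Tet3 in excitatory neurons was not.

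**Figure D1:**
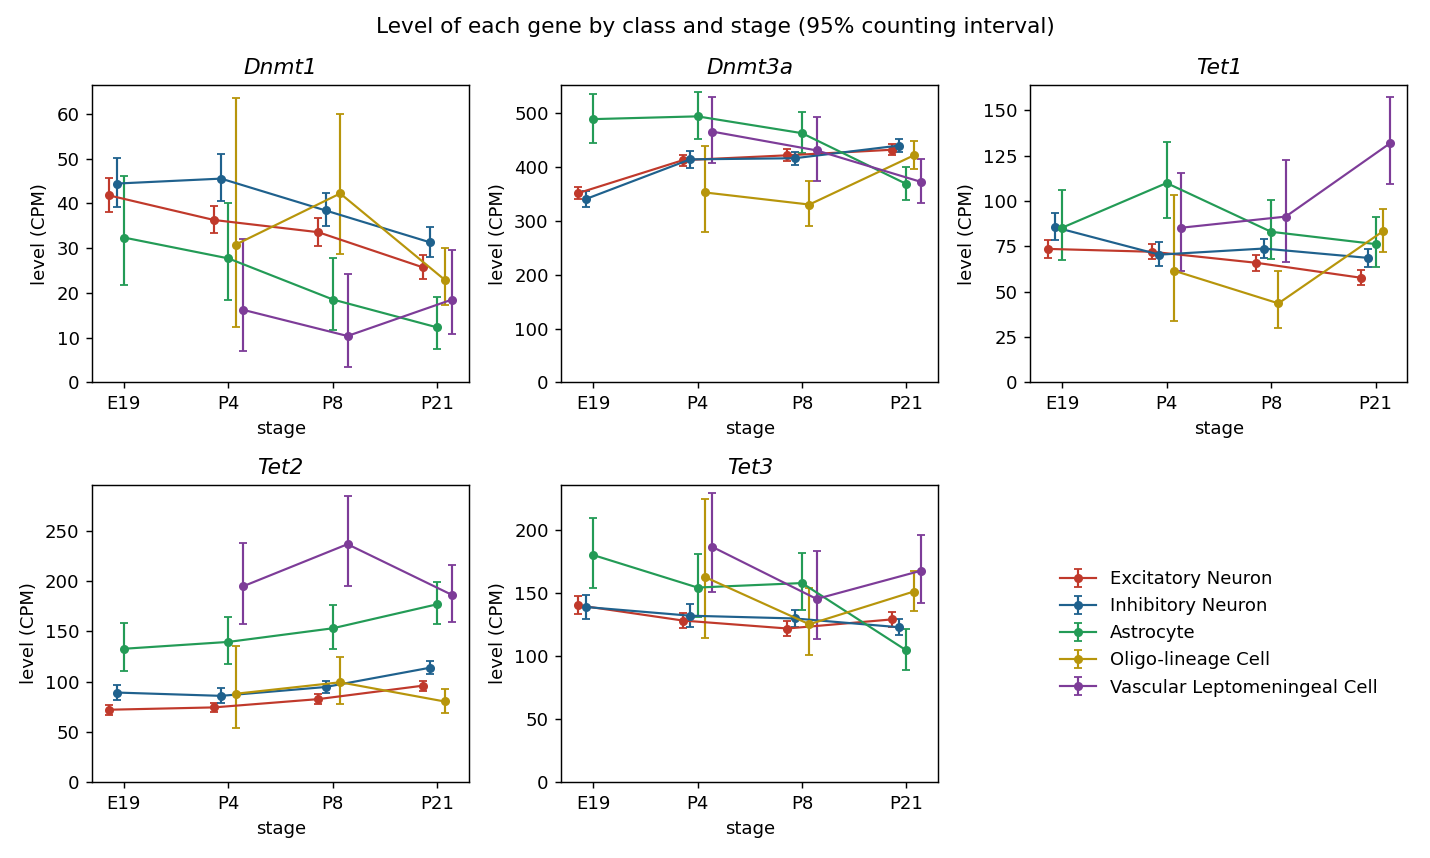
Level of each gene (CPM, y axis from 0) by stage in 5 classes, shown only for groups of 50 nuclei or more, with 1 library a stage and bars for the 95% counting interval. In both neuron classes Dnmt3a is lowest at E19 (351 and 340 CPM) and Tet2 is highest at P21 (96.1 and 114 CPM), while in astrocytes Dnmt3a is lowest at P21 (368 CPM).

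Tet1, an eraser whose CXXC domain binds CpG, was modestly lower at P21. It stood at 73.6, 72.0, 66.0 and 57.7 CPM from E19 to P21 in excitatory neurons, and at 85.5, 70.4, 73.8 and 68.7 CPM in inhibitory neurons. In excitatory neurons the P21 library was the lowest, and in inhibitory neurons the E19 library was the highest with the other 3 close together. The log2 ratio of P21 over E19 was -0.33 (-0.45 to -0.20) in excitatory and -0.30 (-0.45 to -0.15) in inhibitory neurons. Among nuclei of 6000 to 12000 UMIs they were 0.041 (-0.32 to 0.40) and -0.11 (-0.36 to 0.14), so both intervals held 0, and with every nucleus thinned to 2300 UMIs they were -0.083 and -0.15.

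Tet2, the Tet enzyme without a CXXC domain of its own, was higher with stage. Excitatory levels from E19 to P21 ran 72.1 CPM (67.3 to 77.2), 74.5, 82.7 and 96.1 (91.1 to 101). Inhibitory levels ran 89.2 (81.8 to 97.2), 85.9, 94.8 and 114 CPM (108 to 120). The P21 library was the highest in both classes and the E19 and P4 libraries overlapped. The log2 ratio of P21 over E19 was 0.39 (0.27 to 0.51) in excitatory and 0.34 (0.20 to 0.47) in inhibitory neurons, and among nuclei of 6000 to 12000 UMIs it was 0.67 (0.36 to 0.98) and 0.53 (0.31 to 0.74). The antisense gene Gm42567 overlaps Tet2, as given above.

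Over all nuclei, Tet3 was the most abundant eraser in neurons and the steadiest of the 5 genes there. It stood at 140.4, 128, 122 and 129 CPM in excitatory neurons and at 139, 132, 130 (129.9) and 123 CPM in inhibitory neurons. The log2 ratios of P21 over E19 were -0.12 (-0.21 to -0.023) and -0.17 (-0.29 to -0.051). With median-of-ratios scaling they were 0.0016 (-0.091 to 0.094) and -0.068 (-0.19 to 0.051), so both intervals then held 0. In nuclei of 6000 to 12000 UMIs the Tet3 values were -0.12 (-0.41 to 0.16) and -0.20 (-0.41 to 0.0035). The excitatory value was larger in size there than those of Dnmt1 (-0.039) and Tet1 (0.041). The inhibitory value was larger in size than that of Tet1 (-0.11).

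Per 10 kb of gene span, which adjusts for the length over which nuclear reads are counted, the order in excitatory neurons at P21 was Dnmt3a (39.8 CPM per 10 kb), Tet3 (13.4), Tet2 (11.8), Tet1 (5.53) and Dnmt1 (4.89). At E19 it was Dnmt3a (32.4), Tet3 (14.5), Tet2 (8.86), Dnmt1 (7.93) and Tet1 (7.05). Dnmt3a thus led on this scale at both ends, and Dnmt1 and Tet1 were the lowest pair.

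**Figure D2:**
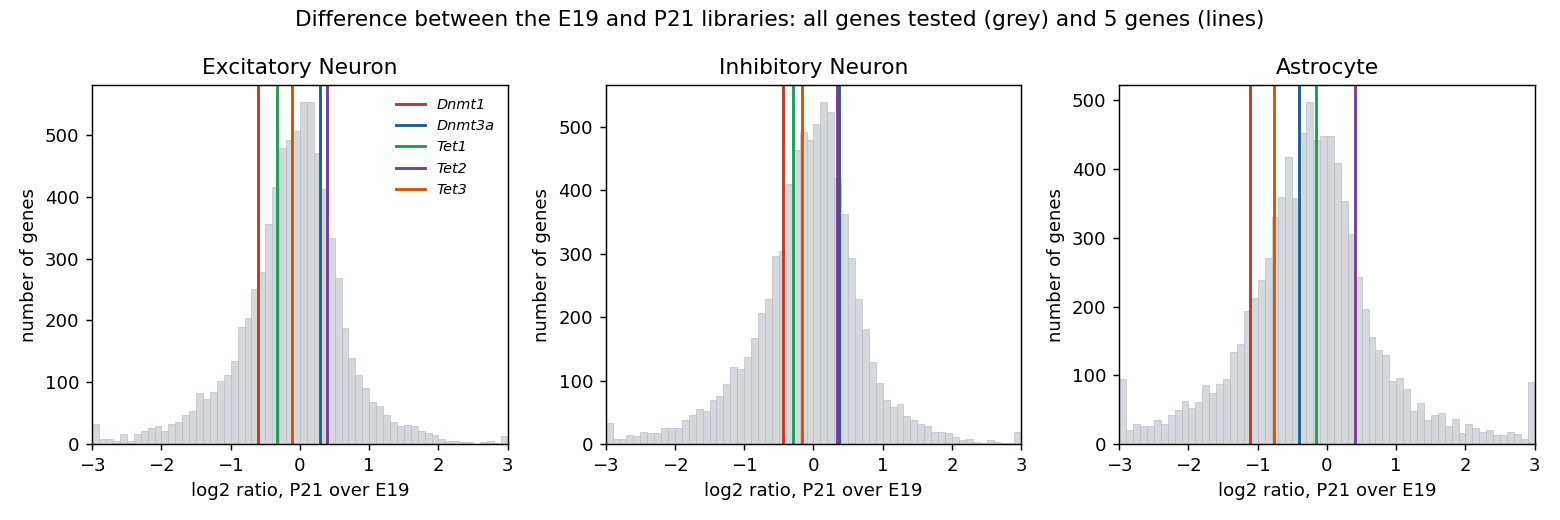
Distribution of log2 ratios of P21 over E19 (x axis; y axis, number of genes) over all genes tested in excitatory neurons, inhibitory neurons and astrocytes, with the end bins holding all values beyond the axis and coloured lines for the 5 genes. The lines lie within the bulk of the genes, from -0.61 to 0.39 in excitatory neurons and from -1.11 to 0.40 in astrocytes.

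Ratios between members within a library need no scaling to total UMIs. The ratio of Dnmt3a to Dnmt1 UMIs in excitatory neurons was 8.40, 11.3, 12.5 and 16.8 in stage order, and in inhibitory neurons 7.65, 9.08, 10.8 and 14.0. On the log2 scale the excitatory values were 3.07 (2.93 to 3.21) at E19 and 4.07 (3.92 to 4.22) at P21. Each later stage was higher in both neuron classes and in astrocytes, where the ratio went from 15.1 to 29.9 on 30 and 20 Dnmt1 UMIs. The astrocyte log2 intervals, 3.38 to 4.45 at E19 and 4.26 to 5.54 at P21, overlap. Intervals of P4 and P8 also overlap in both neuron classes, and those of E19 and P4 in inhibitory neurons. Among nuclei of 6000 to 12000 UMIs the excitatory ratio was 7.85, 11.8, 11.02 and 10.3 in stage order, the last on 33 Dnmt1 UMIs, with log2 intervals of 2.80 to 3.14 at E19 and 2.85 to 3.88 at P21 that overlap. The inhibitory ratio there was 9.30, 8.91, 9.91 and 13.8. The ratio of Tet2 to Tet1 was 0.980, 1.03, 1.25 and 1.66 in excitatory and 1.04, 1.22, 1.28 and 1.66 in inhibitory neurons. Tet1 and Tet2 thus had equal UMIs at E19 within the counting interval, and Tet2 led at P21, also among nuclei of 6000 to 12000 UMIs, with log2 ratios of 0.58 (0.11 to 1.06) and 0.74 (0.47 to 1.00). Tet2 to Tet3 stood at 0.514 and 0.744 at E19 and P21 in excitatory neurons, 0.642 and 0.927 in inhibitory neurons, and 0.737 and 1.69 in astrocytes. The 2 writers together against the 3 erasers stood at 1.37 at E19 and between 1.62 and 1.68 later in excitatory neurons, and at 0.80 in vascular leptomeningeal cells at P21.

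**Figure D3:**
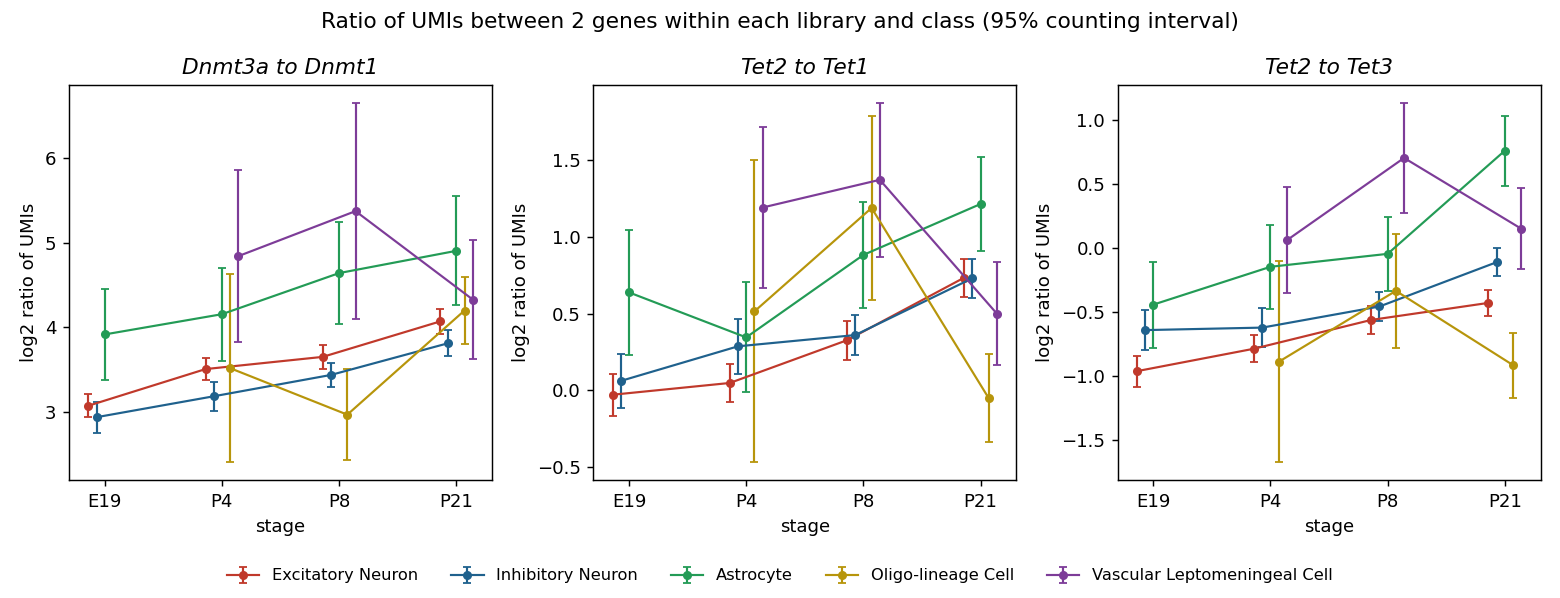
Log2 ratio of the UMIs of 2 genes (y axis) by stage (x axis) in 5 classes, with 1 library a stage and bars for the 95% counting interval. Over all nuclei, Dnmt3a to Dnmt1 is higher at each later stage in both neuron classes (8.40 to 16.8 as a plain ratio in excitatory neurons), and Tet2 to Tet1 goes from near 1 to 1.66.

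The 2 neuron classes were alike in Dnmt3a and Tet3 and differed slightly in the rest. Tet2 was higher in inhibitory than in excitatory neurons in 4 of 4 libraries, with log2 ratios of 0.29, 0.19, 0.19 and 0.24 from E19 to P21, and every interval lay above 0. Dnmt1 was also higher in 4 of 4 (0.080, 0.29, 0.17 and 0.24), with 3 intervals above 0, and Tet1 in 3 of 4 (0.20, -0.030, 0.15 and 0.23). For Dnmt3a the ratios lay between -0.046 and 0.026 and for Tet3 between -0.068 and 0.088, with all intervals holding 0. Of all genes 49% lay on the same side in all 4 libraries, so the shared side of Dnmt1 and Tet2 was common. Among nuclei of 6000 to 12000 UMIs the P8 value of Tet2 was -0.017 and the P21 value of Dnmt1 -0.32, so neither kept its side throughout.

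Neuron subtypes were compared next, using 9 that had at least 50 nuclei at both E19 and P21. Their names, such as EN1 and IN1, are the authors' for excitatory and inhibitory clusters. Dnmt3a was higher at P21 in 9 of 9, with 8 intervals excluding 0, while 16.4% of genes were higher at P21 in all 9 subtypes. The inhibitory subtypes IN3, IN4, IN5 and IN6 stood lowest at E19, at 215 CPM (166 to 274), 233, 247 and 259 CPM (204.5 to 323). Next came EN3 at 311 CPM, IN2 at 312, EN4 at 344, EN1 at 378 and IN1 at 425 CPM (399 to 452). The IN6 interval took in the EN3 and IN2 levels. At P21 the same 4 subtypes stood at 409, 441, 430.4 and 485 CPM, within the range of the other 5, from 385 CPM in EN3 to 508 CPM in EN1. Their log2 ratios were 0.91, 0.91, 0.79 and 0.90, each with an interval starting at 0.47 or higher, and those of the other 5 were between 0.17 and 0.52. The 4 were picked by their low E19 levels, which also enter these ratios. Their larger ratios thus follow in part from that choice, and the intervals do not allow for it.

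These 4 subtypes also had shallow nuclei at E19, with median depths of 4465 UMIs in IN3, 4708 in IN4, 5640.0 in IN5 and 5284.5 in IN6. Depths were 6064 UMIs in IN2, 6875.5 in EN4, 8360.5 in EN3, 8604.5 in IN1 and 9351 in EN1. Median mitochondrial shares were 0.726% to 0.983% in the 4 subtypes. They were 0.720% in IN2, 0.575% in EN4, 0.502% in EN3, 0.513% in IN1 and 0.461% in EN1. Among E19 nuclei of 4000 to 8000 UMIs Dnmt3a stood at 223 CPM in IN3 (48 nuclei), 229.5 in IN4, 237 in IN5 and 275 in IN6 (39 nuclei), and at 309 CPM in EN4 (248 to 380.2), 315 in IN2 (274 to 361), 364 in EN3, 369 in EN1 and 450.4 in IN1 (399 to 506). The 4 subtypes were thus the lowest of 9 within that range too, but the intervals of all 4, from 167 to 291 CPM in IN3 and from 210.2 to 354.5 CPM in IN6, overlapped those of EN4 and IN2. The highest subtype exceeded the lowest 1.98 times at E19 and 1.32 times at P21, and 74.1% of all genes likewise had a narrower range at P21.

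The other members were less uniform across these subtypes. Dnmt1 was lower at P21 in 8 of 9, with 4 intervals excluding 0. The exception was IN3, at 26.5 CPM (11.4 to 52.2, 8 UMIs) and 28.6 CPM. Tet1 was lower in 7 of 9 (3 intervals excluding 0) and Tet3 in 7 of 9 (2 intervals). Tet2 was higher in 8 of 9, but only the EN1 interval excluded 0, from 64.5 to 81.8 CPM. Shares of all genes at 7 or 8 of 9 were not computed. In all 9, a stricter count, 17.8% of genes were lower and 16.4% higher. IN3 had the largest single differences of Tet1 (113 to 57.2 CPM) and Tet3 (162 to 102 CPM) among the 9.

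Over all neuron subtypes with 50 nuclei in a library, the highest Tet2 level was in IN8 at P8, 172 CPM (144 to 204), 3.11 times the lowest neuron subtype of that library, EN12 at 55.4 CPM (41.7 to 72.1). IN8 was also the highest neuron subtype at E19, at 119 CPM (87.9 to 157). For Tet3 the highest subtype was 1.38 to 1.70 times the lowest in each library. Neighbours in the order of subtypes mostly had overlapping intervals.

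**Figure D4:**
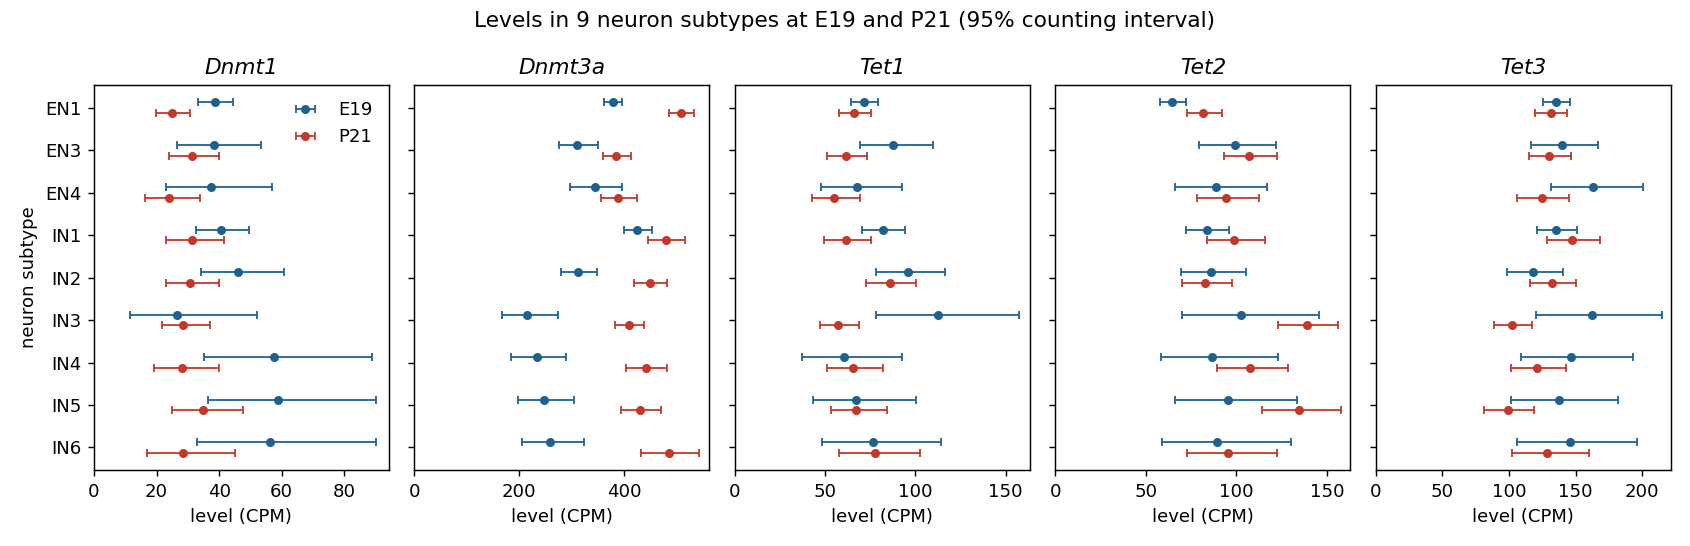
Level of each gene (CPM, x axis from 0) in 9 neuron subtypes (y axis) at E19 and P21, with bars for the 95% counting interval. Dnmt3a is higher at P21 in all 9, most in IN3 to IN6, which stand between 215 and 259 CPM at E19. IN3 to IN6 were picked as the lowest at E19, so their larger differences follow in part from that choice.

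In astrocytes Dnmt3a ran opposite to neurons in CPM, a difference between classes that was not tested. Its levels from E19 to P21 were 488 CPM (444 to 535), 493 (451 to 538), 462 (425 to 501) and 368 (339 to 398). The P21 library was the low one. The log2 ratio of P21 over E19 was -0.40 (-0.58 to -0.23), but the median of all genes was -0.24, and with median-of-ratios scaling the Dnmt3a value was -0.11 (-0.28 to 0.068). Tet3 stood at 180.3, 154, 158 and 105 CPM, a ratio of -0.76 (-1.06 to -0.46), or -0.47 (-0.77 to -0.17) with the other scaling. Dnmt1 stood at 32.4, 27.7, 18.5 and 12.3 CPM on 30, 28, 23 and 20 UMIs, a ratio of -1.11 (-1.75 to -0.48). Tet2 stood at 133, 139.6, 153 and 177 CPM, a ratio of 0.40 (0.11 to 0.70), and Tet1 at 85.3, 109.9, 83.0 and 76.3 CPM. In astrocytes 2 of 5 genes, Dnmt1 and Tet3, passed the 0.5 cut, against 53.9% of 8577 genes. Summed oligodendrocyte markers stood at 107 CPM in astrocytes at P21 and at 17.8 to 25.9 CPM before, and their part in these values was not tested.

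The oligodendrocyte lineage could be split within the P21 library, where a difference between subtypes is not one between libraries. It held 64 precursors (OPC) and 187 myelinating oligodendrocytes at P21. Dnmt1 stood at 53.4 CPM in precursors (16 UMIs, 30.5 to 86.8) and 19.1 CPM in myelinating nuclei (30 UMIs, 12.9 to 27.3), a log2 ratio of -1.28 (-2.04 to -0.51). Tet3 stood at 93.5 and 160 (159.5) CPM and Tet1 at 46.7 and 82.3 CPM, with ratios of 0.74 (0.20 to 1.28) and 0.75 (0.033 to 1.48). Dnmt3a stood at 351 and 442 CPM (0.33, 0.036 to 0.62) and Tet2 at 104 and 77.8 CPM (-0.39, -0.93 to 0.15). In CPM, Dnmt1 was thus the member higher in precursors beyond counting error, and Dnmt3a, Tet1 and Tet3 were higher in myelinating nuclei. The median log2 ratio of all genes tested was -0.20, so the median gene was itself lower in myelinating nuclei on this scale. With 3 of 5 genes past 0.5, the members did not stand out from the 63.5% of 8000 genes that passed it. Median depths were 4467 and 7860 UMIs, and the part of depth was not tested.

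For the whole lineage the stages differ in composition, since precursors were 76.2% of it at P8 and 20.9% at P21. Tet1 in the lineage stood at 43.6 CPM at P8 and 83.3 at P21, and Dnmt1 at 42.2 and 23.0 CPM. From P8 to P21, 2 of 5 genes passed the cut, against 55.5% of genes. Stage and composition cannot be told apart in those values.

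Rarer classes were compared with excitatory neurons of the same libraries, by setting the UMIs found against those expected at the excitatory level of each library. For classes other than inhibitory neurons, the share of all genes on one side in all 4 libraries was not computed. Dnmt1 in dividing cells, which carry the proliferation markers Mki67 and Top2a, gave 56 UMIs in 106 nuclei against 22.9 expected, a ratio of 2.45 (1.85 to 3.18). It stood at 99.0, 77.0, 86.8 and 83.2 CPM from E19 to P21 and was higher than in excitatory neurons in 4 of 4 libraries. The other 4 genes had ratios between 0.779 and 1.18 in dividing cells, with all intervals holding 1. Precursor markers Pdgfra and Cspg4 summed to 420 to 1165 CPM in the dividing class, and astrocyte markers to 199.7 to 1325 CPM. Over the 4 libraries summed, Uhrf1, which brings Dnmt1 to newly replicated DNA, stood at 66.4 CPM in dividing cells (42 UMIs) and 0.53 CPM in excitatory neurons. Hells, a chromatin remodeller needed for methylation, stood at 125 and 23.7 CPM, and Uhrf2 at 251 and 88.4 CPM. The replication helicase gene Mcm6 stood at 74.3 and 5.26 CPM. Division genes were also found in microglia and endothelial cells, with Mki67 at 94.9 and 70.7 CPM and Mcm6 at 31.6 and 37.8 CPM. Dnmt1 stood in these classes at 25.3 CPM (8 UMIs) and 34.5 CPM (21 UMIs). Of the Mcm genes listed, only Mcm2 was no higher in dividing cells (20.6 CPM) than in microglia (22.1) and endothelial cells (21.4).

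Microglia, the brain's resident macrophages, were high in Tet3 and low in Tet1. The 90 microglial nuclei gave 148 Tet3 UMIs against 40.9 expected, a ratio of 3.62 (3.06 to 4.26). Tet3 stood at 655, 372, 487 and 423 CPM in microglia, above excitatory neurons in 4 of 4 libraries. Tet1 gave 4 UMIs against 20.8 expected, a ratio of 0.192 (0.052 to 0.492), and was below in 4 of 4. Tet2 was 2.38 times (1.83 to 3.05) and Dnmt3a 1.32 times (1.13 to 1.53) the excitatory level, and Dnmt1 gave 8 UMIs against 10.4 expected. The neuronal markers Rbfox3 and Snap25 summed to 88.5 to 288 CPM in microglia, and the part of such transcripts in the 4 Tet1 UMIs was not tested.

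Tet2 was above the excitatory level in vessel-associated classes, but also in microglia, astrocytes and the Epithelial Cell class (1.99 times, 1.65 to 2.39). In vascular leptomeningeal cells, fibroblast-like cells of vessels and meninges, Tet2 was 2.29 times (2.07 to 2.52) and Tet1 1.64 times (1.43 to 1.86) the excitatory level, and Dnmt1 was at 0.523 (0.365 to 0.728). Tet1 there stood at 85.3 CPM at P4 (61.5 to 115), 91.4 at P8 and 132 at P21 (109 to 158), a P21 over P4 ratio of 0.60 (0.12 to 1.08). From P4 to P21, 1 of 5 genes passed the cut in this class, against 43.2% of genes. Between the same libraries the class's own markers Col1a1, Dcn and Lum summed to 1076 and 622 CPM. Endothelial markers summed to 87.3 and 195 CPM, oligodendrocyte markers to 18.3 and 99.2 CPM and astrocyte markers to 2703 and 1349 CPM. Slc1a3, on the astrocyte list, was itself highest in vascular leptomeningeal cells in all but 1 library. The part of these markers in the Tet1 values was not tested. Endothelial cells had the lowest Dnmt3a ratio of the classes, 131 UMIs against 247 expected, a ratio of 0.531 (0.444 to 0.630), and 17 Tet1 UMIs against 41.7 (0.407, 0.237 to 0.652). Tet3 and Tet2 were 1.52 (1.26 to 1.82) and 1.54 (1.21 to 1.93) times the excitatory level in endothelial cells. In astrocytes Tet2 was 1.85 times (1.72 to 1.99) the excitatory level and Dnmt1 0.636 times (0.518 to 0.772). Tet2 was higher than in excitatory neurons in 4 of 4 libraries in 6 of the 8 other classes. The exceptions were the oligodendrocyte lineage and dividing cells, in 3 of 4 each. Over all libraries the ratio in the oligodendrocyte lineage was 0.935 (0.831 to 1.05). How common 4 of 4 is among all genes was not computed for classes other than inhibitory neurons.

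**Figure D5:**
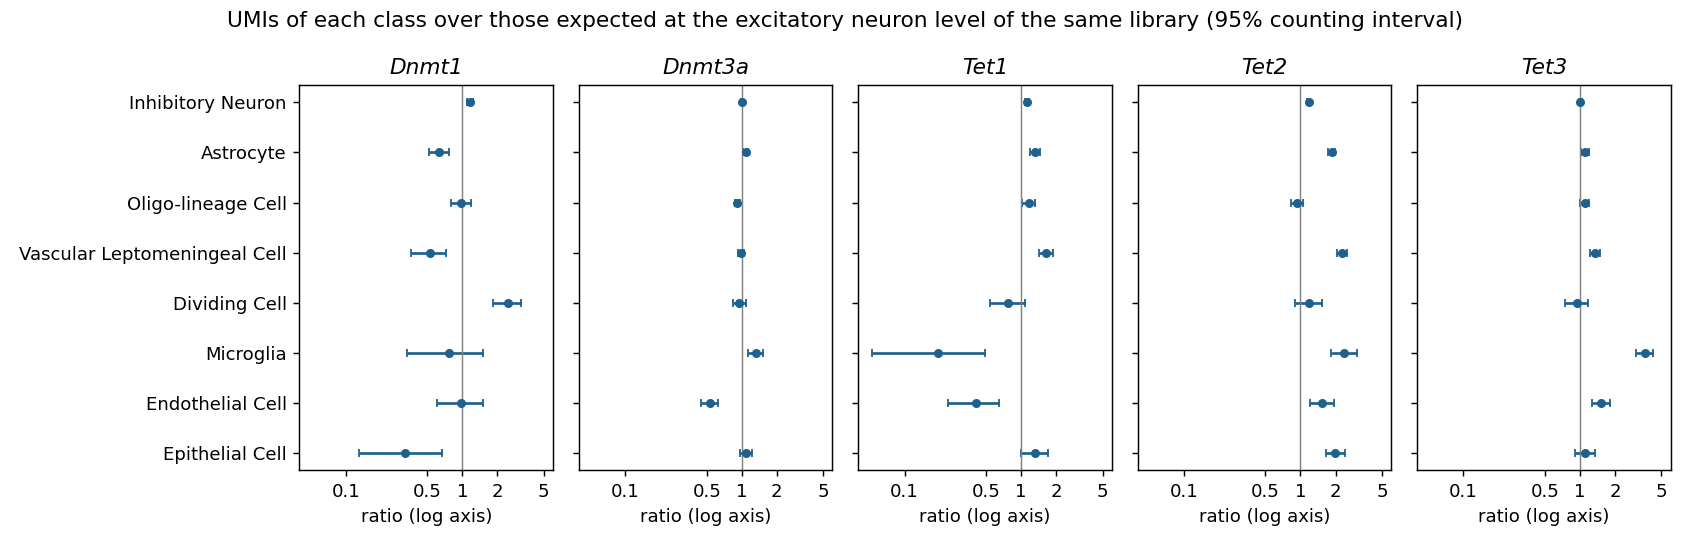
UMIs found in each class (y axis) over those expected at the excitatory neuron level of the same libraries (x axis, log scale, 1 marks equality), with bars for the 95% counting interval, for the 5 genes. Dnmt1 is highest in dividing cells (2.45), and microglia are highest for Tet3 (3.62) and lowest for Tet1 (0.192).

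Related genes were taken from 7 lists of 49 genes. In excitatory neurons 7 of 9 reader-family genes reached 20 CPM, and from E19 to P21 3 passed 0.5 upward (Mbd5, Mbd6 and Zbtb4) and 1 downward (Mbd3). Upward changes of that size were found for 15.8% and downward ones for 24.5% of genes. The list's median was 0.44, beside -0.061 for all genes. In inhibitory neurons 2 passed upward and 1 downward with a median of 0.27, beside -0.037, and against backgrounds of 17.7% and 24.6%. Mbd5 stood at 347, 346, 388 and 528 CPM in excitatory neurons. Zbtb4, a zinc finger reader, stood at 32.7, 40.6, 44.6 and 64.6 CPM there. Both were highest at P21. Family membership does not show that Mbd3, Mbd5 or Mbd6 reads the mark. Mbd3, whose protein is part of the NuRD remodelling complex, stood at 20.1, 19.1, 11.98 and 6.30 CPM, a ratio of -1.15 (-1.37 to -0.93), and at -1.38 in inhibitory neurons.

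Of the genes that remove oxidised cytosine and repair the gap, only 3 of 11 were above 20 CPM in excitatory neurons and 2 in inhibitory neurons. Tdg, the glycosylase that excises the products of Tet oxidation, stood at 25.8, 19.5, 18.9 and 15.4 CPM in excitatory neurons, a ratio of -0.60 (-0.79 to -0.40), and at -0.83 in inhibitory neurons. Of the genes of that list above 20 CPM, it was the only one past the cut in either class. Downward changes of that size were found for 24.5% and 24.6% of all genes. The list medians, over only 3 and 2 genes, were -0.38 and -0.52, beside -0.061 and -0.037 for all genes.

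All 3 Tet partners were read. Cxxc5 stood at 14.2, 12.96, 9.32 and 26.6 CPM in excitatory neurons (0.72) and at 0.98 as a ratio in inhibitory neurons. Ogt, which adds GlcNAc to proteins and binds Tet enzymes, was at 0.32 and 0.37, and Cxxc4 at -0.50 and -0.28. Of these 3, only Cxxc5 passed the cut in both classes, upward as 15.8% and 17.7% of all genes did. The list medians were 0.32 and 0.37.

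Among the histone H3 lysine 36 methyltransferases, whose mark recruits Dnmt3a, 1 of 5 passed, downward, where 24.5% and 24.6% of all genes did. Nsd2 stood at 256, 239.3, 209.8 and 154 CPM in excitatory neurons (-0.71, -0.79 to -0.63) and at -0.65 in inhibitory neurons. Nsd1 was at -0.077 and 0.12 and Nsd3 at 0.28 and 0.23. The list medians were -0.15 and 0.055. Nsd2 was thus the one enzyme of this list below its E19 level past the cut.

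In the cofactor list 2 of 4 genes read passed downward (24.5% and 24.6% of all genes) and 0 upward (15.8% and 17.7%) in both neuron classes, with medians of -0.37 and -0.29. Idh1, a cytosolic enzyme that makes the 2-oxoglutarate used by Tet enzymes, had the largest ratio among the list genes read in neurons. It stood at 46.7, 30.4, 13.4 and 6.09 CPM in excitatory neurons (-2.22, -2.42 to -2.02) and at 54.9, 35.4, 18.0 and 9.64 CPM in inhibitory neurons (-2.03, -2.26 to -1.80). Each stage was below the one before in both classes. Idh2, the mitochondrial enzyme, stood at -0.62 and -0.77.

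Of 5 writer partners only Uhrf2 was above 20 CPM at E19 or P21 in neurons (-0.093 and -0.13). Dnmt3b, another de novo writer, stood at 8.32, 8.79, 8.11 and 2.53 CPM in excitatory neurons, and all 10 S-phase and division genes were below 20 CPM at both ends in both classes.

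The genes most like each member were found by Pearson r of log2(CPM + 5) over 68 subtype and stage groups with at least 50 nuclei, among 7292 genes. The groups share libraries and depth, so r is a description only. For Dnmt1 they were Aldh1l2 (r = 0.80), Dcx (0.78) and Pgap1 (0.78). For Dnmt3a they were Chka (0.65), Sec61a2 (0.62) and Tatdn3 (0.59). For Tet1 they were B3gntl1 (0.64), Pdzrn3 (0.58) and Snx5 (0.56). For Tet2 they were Phf21a (0.74), Stag2 (0.74) and Atp5c1 (0.73), and for Tet3 Tbca (0.63), Tmem126a (0.62) and Ube2r2 (0.61). Among the members the strongest relation was between Dnmt1 and Tet2 (r = -0.47), and Dnmt3a was nearly unrelated to the 3 Tet genes (0.040, 0.012 and -0.010).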

How the data were processed

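UMI counts per gene and nucleus, with class and subtype names, were used as deposited. Per the labels, nuclei of pooled C57BL/6J superior colliculus were run on the 10x 3' v3 platform, and the authors counted reads against a pre-mRNA reference, so introns count. Cell Ranger 3.0.2 and mm10 are named per the submitters' processing notes. Mitochondrial percent per nucleus is the authors' deposited value. How doublets were removed, and which annotation release was used, is not given in the sources used here; no doublet caller was run. The count matrix was used with all its nuclei (at least 2355 UMIs each), and 4 further columns of per-nucleus values were not used.

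Stages came from the development stage label. Counts were summed per class or subtype and library and scaled to 1000000 (CPM), with exact 95% Poisson intervals. Log2 ratios used a pseudocount of 5 CPM and a delta-method interval. Genes under 20 CPM at both ends were not read, groups under 50 nuclei were not ranked, and a log2 ratio of 0.5 counted as past the fold. With 1 library per stage no test was run. Shares of nuclei have exact Clopper-Pearson intervals. Positions are GENCODE M21 (GRCm38) and promoters RefSeq (GRCm38.p6). Code (Python 3.11.15, numpy 2.4.6, pandas 2.3.3, SciPy 1.17.1, matplotlib 3.10.9) was tested on simulated data. Depth ranged from 6828 to 11745 median UMIs per library, which limits precision most in classes with few nuclei.

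The named genes are the 5 members, the 49 genes of 7 related lists and the 3 genes most like each member over subtype and stage groups, among genes with a mean of at least 20 CPM there and leaving out sex-linked, haemoglobin, mitochondrial and ribosomal protein genes. 1 gene of the cofactor list and 1 oligodendrocyte marker are not reported here, and counts, medians and sums were computed without them. Members and lists were chosen with earlier results of these data known. Alternatives were other scalings, pseudocounts of 1 and 20 CPM, no low filter, nuclei or subtypes weighted alike, thinning to 2300 UMIs, removal of nuclei above the 95th depth percentile and, added after seeing the data, depth ranges of 6000 to 12000 and 4000 to 8000 UMIs.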

Additional observations from a re-analysis of the deposited data

Results flagged for a closer look

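The following differences were picked out because a gene was higher at the later stage in one class and lower in another, with both counting intervals excluding 0. Each stage is 1 library, and the difference between classes was not tested.

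Dnmt3a from E19 to P21 was higher in excitatory neurons (0.29) and inhibitory neurons (0.36) and lower in astrocytes (-0.40), differences of 0.70 and 0.77 on the log2 scale. From P4 to P21 it was higher in both neuron classes (0.065 and 0.086) and lower in vascular leptomeningeal cells (-0.32), differences of 0.38 and 0.41. With median-of-ratios scaling the astrocyte value was -0.11 (-0.28 to 0.068) and the leptomeningeal value -0.081 (-0.32 to 0.16), so neither interval excluded 0.

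Tet1 from P4 to P21 was lower in excitatory neurons (-0.30) and astrocytes (-0.50) and higher in vascular leptomeningeal cells (0.60), differences of -0.90 and -1.10. With median-of-ratios scaling the leptomeningeal value was 0.83 (0.35 to 1.31), the excitatory value -0.18 (-0.30 to -0.057) and the astrocyte value -0.20 (-0.55 to 0.15). Summed marker lists of other cell types differed in the leptomeningeal class between the P4 and P21 libraries (endothelial markers 87.3 and 195 CPM, astrocyte markers 2703 and 1349 CPM). Slc1a3, on the astrocyte list, was itself highest in the leptomeningeal class in all but 1 library. The part of these markers was not tested.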

How the results depend on the processing

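Each stage has 1 library, so leaving out a replicate was not run. No paired analysis was possible because each group has a single library and no result comes from a test. Of the alternative values for the results that answer a comparison, 114 stayed within the counting interval of the reported value, 18 moved outside it and 2 changed sign, and for other results the counts were 757, 61 and 7. In every case below the cause was not tested.

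With median-of-ratios scaling, Dnmt3a from E19 to P21 was 0.41 in excitatory neurons, 0.47 in inhibitory neurons and -0.11 in astrocytes, and Tet3 in excitatory neurons was 0.0016. A pseudocount of 20 CPM gave -0.43 for Dnmt1 in excitatory neurons. Weighting nuclei alike gave 0.44 for Dnmt3a in inhibitory neurons. Thinning gave 0.35 and 0.46 for Dnmt3a and -0.083 and -0.15 for Tet1 in excitatory and inhibitory neurons. Weighting subtypes alike gave 0.46 and 0.61 for Dnmt3a. Without the low filter 4936 genes passed the fold in excitatory neurons (3081 with it) and 5207 in inhibitory neurons (3308).

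Nuclei of 6000 to 12000 UMIs gave, from E19 to P21, -0.039 and -0.22 for Dnmt1, 0.041 and -0.11 for Tet1, and 0.67 and 0.53 for Tet2 in excitatory and inhibitory neurons. Only 83 excitatory nuclei of P21 lie in that range. Signs also changed for Dnmt1 (0.069) and Tet1 (0.11, and 0.23 when thinned) from P8 to P21 in excitatory neurons, for Tet2 from P4 to P8 there with subtypes alike (-0.00087), and for inhibitory over excitatory Dnmt1 at P21 (-0.32) and Tet2 at P8 (-0.017) in the depth range, where the log2 ratio of Tet2 to Tet3 in inhibitory neurons at P21 was 0.15.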
